A study of Arabidopsis thaliana with 18 samples.

Results

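The nonpolysomal (NP) RNA of rpl24b mutant and wild-type Arabidopsis thaliana seedlings was compared on 3 arrays of each genotype, 6 of the 18 arrays of the series, chosen by the words rpl24 nonpolysome and WT nonpolysome in the sample titles. The remaining arrays held polysomal (PL) and total (TC) RNA of the same genotypes, with 3 arrays a group. RNA of the aerial parts of seedlings was separated on sucrose density gradients, and each preparation was hybridised to Affymetrix arrays with 22746 probe sets. The nonpolysomal preparation includes monosomes, so it holds free messenger ribonucleoprotein particles, mRNAs on ribosomal subunits and mRNAs with a single ribosome.

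Plants of both genotypes were 10 to 12 days old and had grown side by side on Murashige and Skoog salts at pH 5.7 with 1% sucrose, under cycles of 16 h of light at 80 micromoles per square metre and second and 8 h of dark at 22 °C, and were collected 6 h after lights on. The mutant carries the stv1-1 allele of RPL24B, given by the labels as being in the Wassiliweskijia (Ws) ecotype, while the labels name no ecotype for the wild type. The study's methods place its wild-type plants in Columbia-0 but also speak of a corresponding wild type for each mutant, so that where the wild type was Columbia-0, ecotype and genotype cannot be told apart. Per the same methods the mutant lacks several genes next to RPL24B and carries a transgene expressing CAPRICE at that site, and every comparison below is of this line, not of the loss of RPL24B alone.

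RPL24B encodes a protein of the large (60S) ribosomal subunit, known for its part in the reinitiation of translation downstream of short upstream open reading frames. mRNAs that are being translated by several ribosomes sediment as polysomes, while mRNAs that are stored, newly exported, poorly initiated or too short to hold several ribosomes sediment with the nonpolysomal material. The signal of an mRNA in NP RNA therefore moves with its total amount as well as with its ribosome loading, and the polysomal and total changes are given beside the nonpolysomal ones for that reason. In these extracts of many cell types, fewer cells that express a gene and less of its RNA per cell cannot be told apart.

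All values are log2 signals, on which a difference of 1 is 2-fold, and a change is rpl24b minus wild type. A probe set was called where limma's moderated test gave a Benjamini-Hochberg adjusted p below 0.05 over all probe sets and the change was at least 2-fold. Array medians lay between 4.66 and 5.08, and a median level of 4.96 over probe sets is used below as the limit under which a signal is called dim. The lowest median was that of wild-type replicate 2, against 4.997 and 4.973 for the other wild-type arrays. Its shortfall was not even over the range of signal: the median difference from the other wild-type arrays was -0.31 among probe sets between 4 and 6 in the mutant and -0.02 among those above 8.

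**Figure D1:**
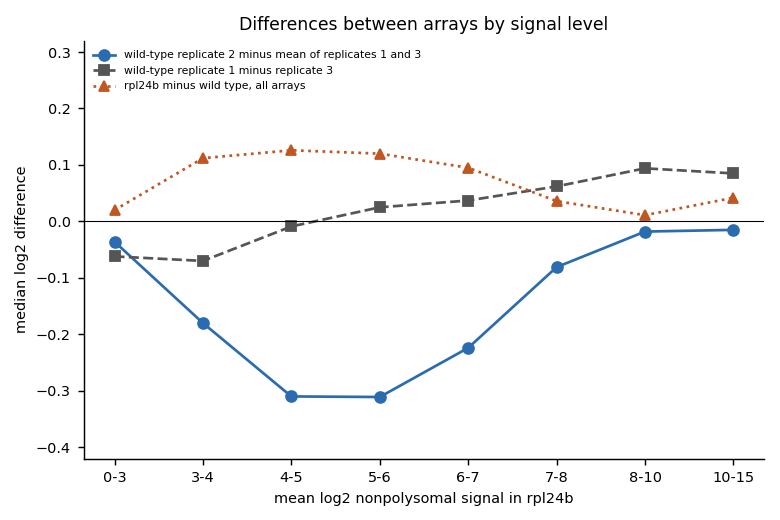
Median log2 difference between arrays (vertical axis) in bins of the mean log2 NP signal in rpl24b (horizontal axis). Circles show wild-type replicate 2 minus the mean of wild-type replicates 1 and 3, which reaches -0.31, squares show replicate 1 minus replicate 3, which stays between -0.07 and 0.09, and triangles show rpl24b minus wild type over all 6 arrays, at most 0.13.

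The tissue label was checked against the markers that had a named probe set. These were 14 probe sets for 58 listed nuclear photosynthesis genes, 2 for 6 root markers and 1 for 8 seed markers. None of the 5 flower markers listed had one. All 14 probe sets found for the nuclear photosynthesis genes were above the dim limit in wild type, with a median signal of 12.06, while the root hair expansins EXPA7 and EXPA18 and the seed storage gene CRU3 had mean wild-type signals under it. CRU3, a cruciferin, read 3.78, 3.81 and 3.36 in wild type and 4.25, 4.95 and 4.63 in rpl24b, a change of 0.96 (adjusted p = 0.0178 by limma) that was under 2-fold in NP RNA, with a change of 1.96 in PL RNA. Its part in the results below was not tested.

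In NP RNA, 479 probe sets (2.11% of those tested) were called higher in rpl24b and 310 (1.36%) lower. Most of these changes were moderate: the median size was 1.24 among the increases and 1.38 among the decreases, and 60 increases and 78 decreases were at least 4-fold. At 16-fold or more the decreases were the more numerous, 14 against 8. Of the increases, 168 were above the dim limit in rpl24b alone, and of the decreases, 113 were above it in wild type alone.

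The centre of all changes was not at 0: the median over all probe sets was 0.075, with 13943 above 0 and 8763 below. When each array was centred on its own median, this became -0.08 and the split of calls turned to 303 higher and 441 lower, and with quantile normalization it was 387 higher and 354 lower. The balance of increases and decreases therefore depends on the scaling, and the lists below are read against the median of all probe sets. Without wild-type replicate 2, 382 probe sets were called higher and 337 lower. Without any minimum on the fold, 1186 were higher (5.21%) and 771 lower (3.39%).

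**Figure D2:**
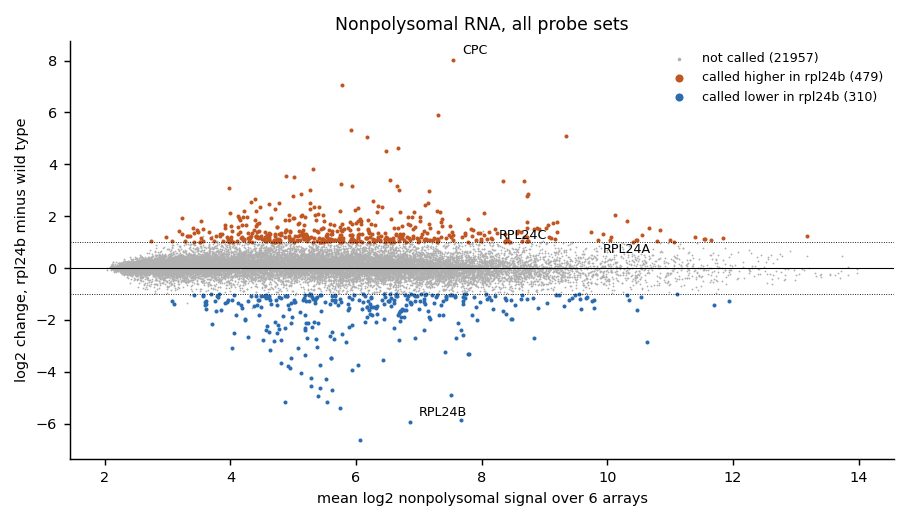
Log2 change in NP RNA, rpl24b minus wild type (vertical axis), against the mean log2 NP signal over the 6 arrays (horizontal axis), 1 point per probe set, with dotted lines at 2-fold. The 479 calls higher in rpl24b and 310 calls lower are coloured, and CPC at 8.03 and RPL24B at -5.93 lie at opposite ends.

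The targeted gene was examined first. RPL24B read 9.96, 9.59 and 9.89 on the wild-type arrays and 4.50, 3.75 and 3.41 on the rpl24b arrays. Every mutant value was below the dim limit, and the fall of 5.93 (SE 0.25, adjusted p = 7.42e-07 by limma) is the one the labels call for. RPL24A, the other cytosolic copy of this protein, read 9.75, 9.23 and 9.80 in wild type and 9.81, 9.82 and 10.25 in rpl24b. The mutant arrays all lay above the wild-type arrays but close to them, and the change of 0.37 did not pass the test (adjusted p = 0.318). RPL24C, the third gene of this name, read 8.03, 7.27 and 7.77 against 8.30, 8.63 and 8.81, a change of 0.89 that passed the adjusted p (0.031) but not the 2-fold minimum.

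CPC, the small MYB protein CAPRICE that represses trichome fate and promotes root hairs, read 3.25, 3.67 and 3.67 in wild type and 11.64, 11.46 and 11.58 in rpl24b. This was the largest increase among the named genes, 8.03 (SE 0.16, adjusted p = 6.35e-09 by limma), with 6.86 in PL RNA and 7.40 in TC RNA, as the transgene described in the methods calls for.

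Of the 10 protein-coding genes on each side of RPL24B, 9 had a probe set, and 2 of these were called, 1 in each direction. SRPK4, the next gene and a kinase of the family that phosphorylates SR splicing factors, read 6.72, 6.14 and 6.84 in wild type and 4.03, 3.92 and 3.69 in rpl24b. It fell by 2.68 (SE 0.20, adjusted p = 2.97e-05), to dim signals on every mutant array, and it is described for its place next to RPL24B, after its values were seen. SK6, a SKP1-like gene whose family encodes subunits of SCF ubiquitin ligases, lies 4 genes away on the same side and read 2.27, 2.28 and 2.17 in wild type and 9.35, 9.05 and 9.495 in rpl24b. The wild-type values are near the lowest on these arrays, and the increase was 7.06 (SE 0.16, adjusted p = 8.67e-09). Both genes had changes of the same sign in the other preparations, -2.33 in PL and -2.59 in TC RNA for SRPK4 and 5.52 and 5.27 for SK6. On the same side, AT3G53040, which lies between these genes, and AT3G53070 and AT3G53080, which lie beyond SK6, were dim in both genotypes.

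The 10 largest increases by the naming rule (called probe sets of 1 gene, the same sign in each same-numbered pair of arrays, and not dim in the higher genotype) began with CPC and SK6. ESP, the epithiospecifier protein that turns glucosinolate breakdown toward nitriles, read 6.85, 6.495 and 7.06 in wild type and 11.87, 11.86 and 11.89 in rpl24b. It rose by 5.08 (SE 0.17, adjusted p = 1.41e-07 by limma), 33.7-fold, with 5.44 in PL RNA. RPP2C, an acidic P2 protein of the ribosomal stalk, read 4.47, 4.18 and 4.42 against 8.91, 8.99 and 9.03, a rise of 4.62 in NP and 4.61 in PL RNA. The other 6 are AT2G15560 (5.88), AT4G29200 (5.04), AT5G15360 (4.52), AT5G15420 (3.83), AT5G11410 (3.55) and AT1G58025 (3.504), each dim on all wild-type arrays and above the dim limit on all mutant arrays.

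The largest decreases were led by AT3G47250, which read 9.40, 9.54 and 9.17 in wild type and 2.63, 3.03 and 2.61 in rpl24b, a fall of 6.62 (SE 0.17, adjusted p = 2.59e-08). ECS1, a cell wall protein gene described in the response to Xanthomonas, read 10.82, 10.19 and 10.80 against 4.79, 4.49 and 4.88 and fell by 5.88. LTP, which encodes a lipid transfer protein, read 10.16, 9.95 and 9.77 against 5.11, 5.27 and 4.76 and fell by 4.91. For these genes the change in PL RNA was close in size, -5.76, -5.94 and -4.86. The thionin-like gene AT1G66100 fell by 4.69, ZW9 by 4.62 and AT1G76960 by 4.54. RPL24B itself and 3 genes described next, CNGC12, RPP4 and AT1G35612, complete the 10.

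**Figure D3:**
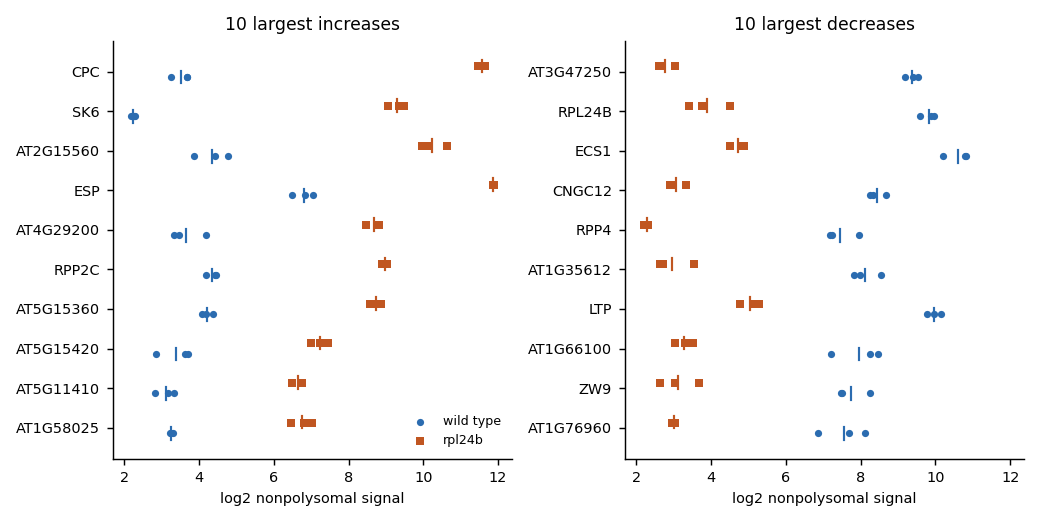
Log2 NP signal (horizontal axis) of the 10 largest increases (left) and 10 largest decreases (right) in rpl24b, with circles for the 3 wild-type arrays, squares for the 3 rpl24b arrays and vertical lines for group means. The changes run from 3.504 to 8.033 and from -4.54 to -6.62. The genes were chosen for the size of their change, so the gap between the groups follows from that choice.

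Of the genes measured for salicylate-dependent and NLR immunity, most fell in NP RNA. NLR proteins are intracellular receptors that recognise pathogen effectors, and salicylate is a hormone of the defence that follows. Of the 25 genes listed, 6 had a named probe set, and 4 of these were called lower, where 1.36% of all probe sets were, and none higher, with a list median of -2.41. Without wild-type replicate 1, 3 were called lower. RPP4, an NLR known for recognising downy mildew, read 7.24, 7.95 and 7.17 in wild type and 2.196, 2.321 and 2.309 in rpl24b, a fall of 5.18 (SE 0.21, adjusted p = 4.57e-07). SNC1, an NLR of the same gene cluster, read 6.48, 6.75 and 6.68 against 3.004, 2.927 and 2.977 and fell by 3.67. CNGC12, a cyclic nucleotide-gated channel linked to disease resistance, read 8.34, 8.69 and 8.26 against 2.89, 3.31 and 2.93 and fell by 5.38. All 3 reached dim signals in each mutant array. RPP13, also an NLR for downy mildew, changed by -1.15 (adjusted p = 0.00859). The downstream genes WRKY70 and PR1 were not called, at -0.09 and 0.36. NLR genes, and ESP above, are known to differ among ecotypes, and the part of ecotype in these changes was not tested.

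Glucosinolate genes changed in both directions, with 2 of 8 called higher and 2 lower, beside 2.11% and 1.36% of all probe sets. IMS2, an enzyme of methionine chain elongation, rose by 2.36 beside the rise of ESP. ESM1, which shifts the breakdown from nitriles to isothiocyanates and so opposes ESP, read 8.91, 9.19 and 8.98 in wild type and 5.62, 5.73 and 6.04 in rpl24b and fell by 3.23 (SE 0.16, adjusted p = 1.99e-06). The jacalin-like lectin JAL33 read 7.64, 7.76 and 7.77 against 5.67, 5.56 and 5.85 and fell by 2.03 in NP RNA and by 3.78 in PL RNA. The other listed genes with a probe set, AOP1, AOP3, BCAT4 and UGT74B1, had changes between -0.18 and 0.23.

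Nuclear genes for cytosolic ribosomal proteins (r-proteins) had more increases than decreases in NP RNA. Among 86 probe sets for proteins of the small (40S) subunit, 59 were above 0, 12 were called higher, where 2.11% of all probe sets were, and none lower, where 1.36% were. Their median was 0.32 against 0.075 over all probe sets. The mutant arrays all lay above the wild-type arrays for 44 of them and all below for 10, beside 17.6% and 10.1% of all probe sets. Among 114 probe sets for 60S proteins, 84 were above 0, 8 were called higher and 3 lower, with a median of 0.26. In PL RNA the medians were 0.54 for 40S and 0.55 for 60S, in TC RNA 0.38 and 0.46, and over all probe sets 0.004 and 0.034. In PL RNA 7 probe sets of each subunit were called higher, where 1.71% of all probe sets were, and RPL24B alone was called lower, where 1.17% were. Arrays centred on their median left 9 higher calls for 40S and 5 for 60S with medians of 0.16 and 0.11, beside -0.08 over all probe sets. The higher calls were 7 and 5 without rpl24b replicate 3 and 15 and 13 without wild-type replicate 1.

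Some of the called r-protein genes encode small r-proteins. Small r-proteins were not counted as a group, so these genes do not show whether small r-proteins were called more often than others. RPS30A, whose product is cleaved from a ubiquitin-like fusion in animals, read 8.56, 7.77 and 8.35 in wild type and 9.61, 9.53 and 10.48 in rpl24b and rose by 1.65 (SE 0.28, adjusted p = 0.00571). RPL29A read 10.18, 9.89 and 10.23 against 11.45, 11.18 and 12.06 and rose by 1.47, and its paralog RPL29B rose by 1.83. In both RPL29 genes the lowest mutant array was above the highest wild-type one, as in 17.6% of all probe sets. Looking beyond the rule, at genes chosen after their values were seen, all 3 RPS28 genes were called (1.31, 1.09 and 1.27), and so were RPS30B (1.18), RPS27A (1.34), RPS25B (1.04), RPS25D (1.15) and RPL39B (1.33). RPL39A and RPL39C, at 0.93 and 0.95, and RPS30C, at 0.78, passed the adjusted p but were under 2-fold. The other named increases of the lists were RPS27aA (2.07), RPL30A (2.06) and RPS9C (1.39), each with a PL change between 1.721 and 1.998. Paralogs of r-proteins can be near-identical, so that a probe set may read more than its own gene.

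A small number of r-protein mRNAs went the other way. RPL3A, a core protein at the peptidyl transferase centre, read 11.22, 11.36 and 11.22 in wild type and 9.70, 9.50 and 9.78 in rpl24b and fell by 1.61 (SE 0.15, adjusted p = 0.000109), while its PL change was -0.33. RPL18aC read 10.59, 10.69 and 10.39 against 9.07, 8.98 and 9.04 and fell by 1.53 (adjusted p = 0.000159), with a PL change of 0.36. In both genes the spread within each genotype was a small part of the gap between genotypes. RPL13D (-0.79), RPL7D (-0.71) and RPS2C (-0.59) passed the adjusted p without reaching 2-fold, with PL changes of 0.73, 0.53 and 0.62.

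The stalk of the 60S subunit, where translation factors bind, held the widest range. Of 16 probe sets, RPP2C was called higher and RPP0A lower, beside 2.11% and 1.36% of all probe sets. RPP0A, a copy of the P0 protein that anchors the stalk, read 7.83, 7.78 and 8.05 in wild type and 3.98, 4.35 and 3.58 in rpl24b, a fall of 3.92 (SE 0.20, adjusted p = 2.14e-06) while its PL signal was dim in both genotypes, with means of 4.79 and 3.84. The other P0 genes RPP0B, RPP0C and RPP0D changed by 0.41, 0.19 and 0.31 and were not called. Without these extremes the stalk genes lay between -0.47 and 0.98.

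The organelle ribosomes did not share one direction. Among 49 nuclear genes for plastid r-proteins, 33 were below 0, with a median of -0.15 in NP, -0.01 in PL and -0.14 in TC RNA. Calls were 1 higher, pRPL12 at 1.92, and 2 lower, pRPL9 at -2.02 and pRPL27 at -1.98. Over all probe sets 2.11% were called higher and 1.36% lower. On arrays centred on their median 5 were called lower, and without wild-type replicate 3 or rpl24b replicate 2 it was 4. The 46 nuclear genes for mitochondrial r-proteins had a median of 0.25, which was 0.11 without wild-type replicate 2, 0.15 without rpl24b replicate 3 and 0.10 on centred arrays. Called higher were 2, mRPL14 at 1.70 and the probe set shared by both mRPL33 genes at 1.04. The latter lost its call without wild-type replicate 2 or 3 (0.95 and 0.94) or rpl24b replicate 3 (0.81). None of the 6 mitochondrion-encoded r-protein probe sets was called, and only 1 of them was above the dim limit in wild type.

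For plastid-encoded transcripts the change depended on which arrays were compared. For the 22 plastid-encoded r-protein probe sets the median change was 0.39 with 3 called higher, where 2.11% of all probe sets were. The medians of the same-numbered pairs, however, were 0.82, -0.37 and 0.53. Leaving out wild-type replicate 1 gave a median of 0.12 and leaving out wild-type replicate 2 one of 0.62. Without 1 rpl24b array the median ran from 0.27 to 0.515. pRPS4 was the firmest, reading 12.24, 12.80 and 12.68 in wild type and 13.79, 13.71 and 13.87 in rpl24b, a rise of 1.22 (SE 0.17, adjusted p = 0.00229). pRPS18 (1.07) missed 2-fold without wild-type replicate 3 (0.94). pRPS16 (1.06) missed the test in the fit with a replicate block. It also missed the test without wild-type replicate 1 or 3 (1.06 and 0.90) or rpl24b replicate 2 or 3 (1.12 and 0.75). A single one of these r-protein probe sets was called on centred arrays, and likewise when wild-type replicate 3 was left out.

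Photosynthesis genes of the plastid genome were mostly not called, as were most of all probe sets (2.11% higher and 1.36% lower). None of 7 for photosystem I and none of 12 for the cytochrome b6f complex and ATP synthase was called. Called lower were 1 of 15 for photosystem II and 2 of 11 for the NDH complex, which carries cyclic electron flow. ndhA read 8.57, 9.76 and 9.49 in wild type and 7.26, 7.45 and 7.77 in rpl24b and fell by 1.78 (adjusted p = 0.00399). The wild-type arrays spread over more than 1 unit but stayed above the mutant ones. ndhI fell by 1.27, and the call was lost without rpl24b replicate 1 (-1.22), and psbK of photosystem II fell by 1.24, and the call was lost without rpl24b replicate 2 (-1.17). The polymerase gene rpoC2 rose by 1.498 but missed the test without wild-type replicate 1 or 3 (1.13 and 1.53) or rpl24b replicate 1 or 3 (1.39 and 1.28), and under a trended, robust variance. In wild type, replicate 1 was the lowest array for ndhA, ndhI, psbK, rpoC2, psaJ and petA.

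Nuclear photosynthesis genes lay mostly below 0 without a call. Of 14 probe sets, 13 were below 0 with a median of -0.27, where 8763 of all 22746 probe sets were below 0. All mutant arrays lay below all wild-type arrays for 8, as they did for 10.1% of all probe sets, and none was called. LHCB4.2, a minor antenna protein of photosystem II, read 12.17, 12.21 and 12.24 in wild type and 11.41, 11.40 and 10.95 in rpl24b. Its change of -0.95 passed the adjusted p (0.00643) but not the 2-fold minimum. In PL and TC RNA the list medians were -0.10 and -0.06.

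**Figure D4:**
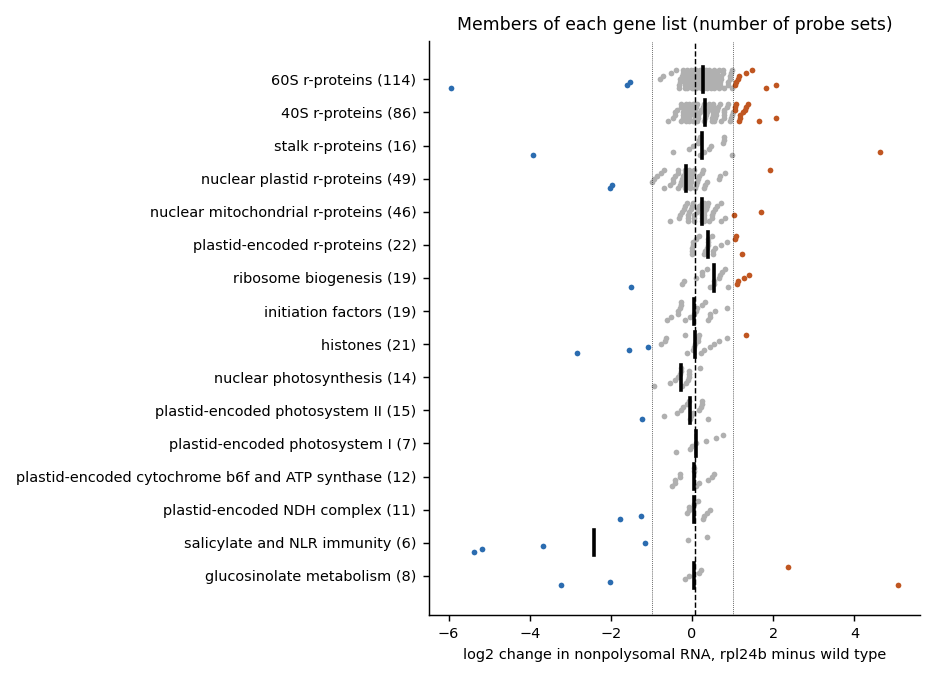
Log2 change in NP RNA (horizontal axis) of the probe sets of 16 gene lists, with the number of probe sets in brackets. Orange points were called higher, blue points lower and grey points not called, black bars are list medians, the dashed line is the median of all probe sets (0.075) and the dotted lines mark 2-fold: the r-protein medians of 0.26 and 0.32 lie right of the dashed line and that of nuclear photosynthesis, -0.27, left of it.

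Genes for ribosome assembly also had more increases than decreases. Of 19 probe sets, 16 were above 0, 4 were called higher and 1 lower, beside 2.11% and 1.36% of all probe sets, with a median of 0.55 in NP, 1.00 in PL and 1.02 in TC RNA. NUC-L2, a nucleolin of rRNA gene regulation, read 3.480, 3.474 and 3.395 in wild type and 4.48, 4.95 and 5.14 in rpl24b and rose by 1.403 (adjusted p = 0.00138), with 2.43 in PL RNA. FIB2, a fibrillarin that methylates rRNA, rose by 1.28, with mutant arrays at 6.90, 7.14 and 7.81 above wild-type arrays at 6.09, 5.58 and 6.34. NOP56, a partner of fibrillarin in box C/D particles, rose by 1.14, a call that was lost without wild-type replicate 1 or 2 (1.06 and 0.95) or rpl24b replicate 1 or 3 (1.24 and 0.89). AT5G61330, the 1 gene called lower, fell by 1.51 against a PL change of -0.37. Higher calls numbered 2 on centred arrays and 2 without rpl24b replicate 3.

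No probe set found for genes of translation itself was called, where 2.11% of all probe sets were called higher and 1.36% lower. The 44 initiation factor genes listed, with poly(A)-binding proteins among them, had 19 named probe sets. The 11 elongation and termination factor genes listed had 4. The largest values were 0.85 for AT2G04520 and -0.61 for PAB8, a poly(A)-binding protein. Both passed the adjusted p (0.044 and 0.049 by limma) but were under 2-fold. In mRNA turnover, UPF3, a factor of nonsense-mediated decay, rose by 1.07, from 6.61, 6.31 and 6.78 to 7.32, 7.85 and 7.74, and missed 2-fold without wild-type replicate 2 (0.94) or rpl24b replicate 2 (0.96).

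Histone genes gave 1 higher and 3 lower calls among 21 probe sets, beside 2.11% and 1.36% of all probe sets. HTB11, an H2B gene, read 7.64, 6.91 and 7.22 in wild type and 4.48, 4.35 and 4.41 in rpl24b and fell by 2.84 (SE 0.19, adjusted p = 1.31e-05), and by 4.11 in PL RNA. 3 called probe sets are annotated to the same 5 H3 genes (AT1G09200, AT5G65360, AT5G10400, AT5G10390 and AT3G27360) and disagree, with changes of -1.57, -1.08 and 1.33. Their PL changes, in the same order, were -3.42, -2.12 and 0.94. The annotation does not tell which of the 5 genes each reads, so no single direction is given for H3 mRNA. The probe set at -1.08 missed 2-fold without wild-type replicate 1 or rpl24b replicate 2 (-0.98 and -0.99).

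Smaller lists held few calls, where 2.11% of all probe sets were called higher and 1.36% lower. In the circadian clock, PRR3, a pseudo-response regulator, rose by 2.495, from 3.74, 4.37 and 3.93 to 6.65, 5.95 and 6.92, while the clock core genes CCA1 and LHY changed by -0.35 and -0.02 and were not called. A probe set that matches FKF1, a photoperiod photoreceptor, and 2 further genes fell by 2.18. In the jasmonate list, 2 of 5 were called higher, ACX5, described below, and LOX2. LOX2, a plastid lipoxygenase of jasmonate synthesis, rose by 1.39, a call that held without rpl24b replicate 2 but was lost on leaving out any other array (1.02 to 1.54). No member of the auxin (5 probe sets), cold and abscisic acid (7) or heat shock (2) lists was called. In the cold list, the dehydrin LTI30 changed by -0.86 without a call, and by -1.18 with a call when rpl24b replicate 3 was left out.

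To ask where the NP change differed from the PL change, the difference between NP and PL signal was taken in each plant sample and compared between genotypes. In this test 81 probe sets (0.356%) were called higher in NP relative to PL RNA and 57 (0.251%) lower. Where an mRNA is measured in both genotypes, this is its ribosome loading with the sign turned, so that a higher value means relatively less mRNA in polysomes in rpl24b. For 43 of the 81 and 25 of the 57 the mean signal of 1 genotype was dim in both preparations. In these the difference rests on the signals of the other genotype and is no measure of a change in loading. The calls were fragile: 36, 38 and 28 of the 81 remained when rpl24b replicates 1, 2 and 3 were left out in turn, and 48, 67 and 49 when the wild-type replicates were, and of the 57 between 30 and 48 remained on leaving out any 1 array. Of the NP calls that met the naming conditions, 328 higher and 229 lower, 42 and 30 were also past this test in the same direction.

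Among these, the 5 largest increases were SK6, AT2G15560, AT4G29200, AT5G15360 and AT5G15420. AT2G15560 read 4.78, 3.88 and 4.43 in wild-type and 10.65, 9.97 and 10.12 in rpl24b NP RNA, a change of 5.88 beside 2.67 in PL RNA. AT5G15420 changed by 3.83 in NP and 1.52 in PL RNA, and AT4G29200 by 5.04 and 2.96. All 5 were dim in wild type in both preparations, at 4.36 and 4.38 for AT2G15560, so that these values describe their NP and PL signals in rpl24b. The 5 largest decreases were CNGC12, RPP4, AT1G35612, AT5G56380 and RPP0A. AT5G56380 read 7.93, 7.24 and 7.80 against 3.14, 3.56 and 3.47, a fall of 4.27 in NP beside 1.53 lower in PL RNA. All 5 were dim in rpl24b in both preparations, at 3.39 and 3.63 for AT5G56380, so that the values describe their NP and PL signals in wild type.

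Several genes of known function, above the dim limit in both genotypes and preparations, were called in NP RNA with a PL change well under 2-fold. ACX5, an acyl-CoA oxidase of jasmonate synthesis, read 5.99, 5.61 and 6.00 in wild type and 8.46, 8.31 and 8.17 in rpl24b and rose by 2.45 (SE 0.16, adjusted p = 1.33e-05), with 0.42 in PL RNA (difference 2.03, adjusted p = 0.000397). CAC2, the biotin carboxylase subunit of plastid acetyl-CoA carboxylase that begins fatty acid synthesis, read 9.52, 9.72 and 9.18 against 7.395, 7.606 and 7.501 and fell by 1.97, with -0.29 in PL RNA (difference -1.68, adjusted p = 0.000802). SSI2, a stearoyl-ACP desaturase of the same pathway, read 7.67, 7.81 and 7.25 against 6.20, 6.26 and 6.07 and fell 2.64-fold, with a log2 change of -0.23 in PL RNA (difference -1.17, adjusted p = 0.0304). The other 3 fatty acid synthesis probe sets, for ACC2, FATB and FaTA, had NP changes of 0.96, 0.61 and 0.54 without a call.

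GAMMA CAL2, a carbonic anhydrase-like subunit of mitochondrial complex I, read 8.83, 8.82 and 8.66 in wild type and 7.707, 7.503 and 7.362 in rpl24b. It fell by 1.25 in NP RNA while its PL change was 0.40 and its TC change -0.06 (difference of NP and PL changes -1.65, adjusted p = 0.000802). RPL18aC (difference -1.88, adjusted p = 0.000432) and RPL3A (-1.28, adjusted p = 0.00373) had the same form, with TC changes of -0.17 and -0.19. RPS30A (1.41, adjusted p = 0.0476) and RPL29A (1.09, adjusted p = 0.038) had the opposite one. Of the 114 probe sets for 60S proteins, 2 were called higher in this test, RPL24B among them, and 6 lower. Of the 86 for 40S proteins, 1 was called higher and 2 lower. Over all probe sets the shares were 0.356% and 0.251%. With no fold minimum the counts were 2 and 9 for 60S and 1 and 7 for 40S, beside 102 and 102 of all 22746 probe sets. RPL24B fell by 5.93 in NP and by 7.41 in PL RNA, both to dim signals.

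**Figure D5:**
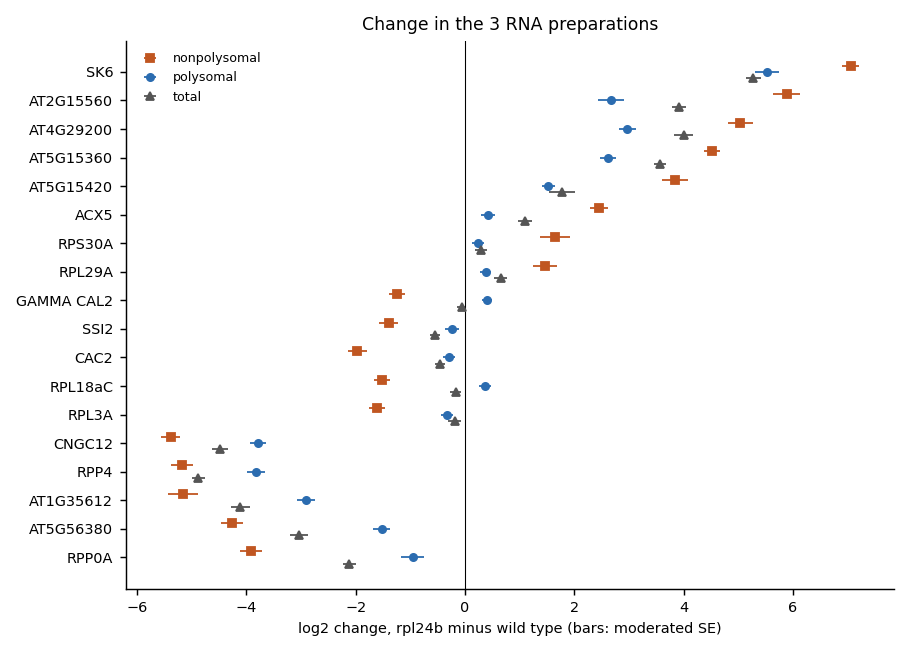
Log2 change, rpl24b minus wild type (horizontal axis), in NP (squares), PL (circles) and TC RNA (triangles) of 18 named genes, with bars for the moderated standard error, 3 arrays a group. In ACX5 the NP change of 2.45 stands apart from 0.42 in PL RNA, and in GAMMA CAL2 the NP change of -1.25 and the PL change of 0.40 have opposite signs, while the 5 genes at the top and the 5 at the bottom were dim in 1 genotype in both NP and PL RNA.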

How the data were processed

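Per the labels, aerial seedling RNA was fractionated on sucrose gradients, labelled and hybridised to 1-colour Affymetrix arrays. The authors deposited log2 signals for 22746 probe sets, and the submitters' processing notes name affy, RMA and MAS5. Each array's log2 values were used as deposited; TC arrays appear to have been normalized separately from NP and PL, so nothing was tested across them. Of the probe sets, 13523 were named by 1 gene of the platform annotation, 493 by several, 89 and 456 through r-protein and study lists, and 8185 stayed unnamed here; symbols and gene order came from RefSeq's TAIR10.1 table.

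The 3 NP arrays of each genotype were compared with limma 3.58.1 in R 4.3.3 (lmFit, eBayes, Benjamini-Hochberg over all probe sets), called at adjusted p under 0.05 and 2-fold. In simulated data of this comparison 88% of changes of 1.5 and 99% of changes of 3 were recovered (log2, 100 each among 22746 probe sets), with 3 false calls. The simulated noise was independent and normal around each probe set's mean. It held no differences between arrays, such as that of wild-type replicate 2, so these rates do not cover errors from scaling. Genes named were RPL24A, RPL24B, RPL24C and CPC, the 10 largest changes each way, the 5 each way also past the NP minus PL test, and up to 3 called members a list and direction (the 2 largest changes where none was called). The genes, lists and tests were chosen with earlier results of these data known, and lists were given no set test.

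Per the labels, each of the 3 biological replicates had its own growth time with both genotypes side by side, so a replicate number marks a shared growth time. Deviations of same-numbered NP arrays from their group means correlated at -0.19, 0.001 and 0.062 over probe sets. The number of arrays limits the precision. Alternatives were array centring, quantile normalization, array weights, a trended robust variance, a replicate block, a filter on dim probe sets, a joint fit with PL arrays, and leaving out each array.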

Additional observations from a re-analysis of the deposited data

Results flagged for a closer look

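Named genes are listed here where the NP change and the PL change under the same contrast differed by the test of that difference (limma, adjusted p under 0.05 and at least 2-fold). Values are the NP change minus the PL change on the log2 scale, and causes were not tested. For 19 of the 29 probe sets the signal of 1 genotype was dim in both preparations, so that the value rests on the other genotype and is no measure of a change in ribosome loading. The other 10 are AT5G61330, ACX5, JAL33, CAC2, SSI2, GAMMA CAL2, RPL29A, RPL3A, RPL18aC and RPS30A.

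Relative to PL RNA, rpl24b NP RNA was higher for RPL24B (1.48), SK6 (1.54), AT2G15560 (3.22), AT4G29200 (2.07), AT5G15360 (1.90), AT5G15420 (2.31), AT5G11410 (1.23) and AT1G58025 (2.295). The same held for AT1G66100 (1.78), HTB11 (1.27), 2 probe sets of the 5 H3 genes (1.85 and 1.05), ACX5 (2.03), JAL33 (1.75), RPL29A (1.09) and RPS30A (1.41). In RPL24B, AT1G66100, HTB11, the H3 probe sets and JAL33 the NP signal itself fell, by less than the PL signal.

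It was lower for CNGC12 (-1.59), RPP4 (-1.35), AT1G35612 (-2.25), AT5G56380 (-2.74), RPP0A (-2.96), NUC-L2 (-1.03) and AT5G61330 (-1.14). The others were the FKF1 probe set (-1.42), CAC2 (-1.68), SSI2 (-1.17), GAMMA CAL2 (-1.65), RPL3A (-1.28) and RPL18aC (-1.88). In NUC-L2 the NP signal rose, by less than the PL signal.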

How the results depend on the processing

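Of the counts of NP calls, all stayed within 1.5 times the reported 479 and 310 except the 303 higher on centred arrays; without 1 array they ran from 365 to 553 higher and 285 to 337 lower. Of the NP minus PL test's 81 and 57, centred arrays gave 69 and 117 and single arrays left out 28 to 74 higher and 33 to 71 lower. The replicate block gave 478 higher and 313 lower NP calls and, among the genes named, took the call from pRPS16, NAC3 and MYB23 and from no other. Centred arrays lowered each of the 31 list medians by about the same amount (median of the differences -0.152), which turned the sign of 8 that lay near 0: histones, initiation factors, glucosinolate metabolism, photosystem I, cytochrome b6f and ATP synthase, the NDH complex, the plastid RNA polymerase and mitochondrion-encoded r-proteins. The medians for which this exceeded the spread over the pairs of plants became -0.42 (nuclear photosynthesis), -0.30 (elongation factors), -2.56 (salicylate and NLR), 0.65 (jasmonate), 0.39 (fatty acid synthesis, 0.42 with quantile normalization), -1.40 (complex I carbonic anhydrases, 1 probe set), 0.32 (mRNA decay), -0.049 (mitochondrion-encoded r-proteins, -0.042 with quantile normalization) and -0.30 (nuclear plastid r-proteins). Leaving out 1 array gave medians from 0.53 to 0.96 for jasmonate, 0.33 to 0.57 for mRNA decay, -0.011 to 0.216 for mitochondrion-encoded and 0.33 to 0.70 for ribosome biogenesis genes. Signs turned for ATHSP22.0 without rpl24b replicate 3 (0.039, and from there to -0.175 without 1 array) and for EXPA18 on centred arrays (-0.017), neither of them called. Of 90 named and called probe sets, 15 lost the call in at least 1 alternative; the cause was not tested. Dim signals limit the size of a fall, since the lowest values on each array lie near 2.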

Other observations

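Beyond the lists, genes chosen here after their values were seen showed further changes in NP RNA. They were picked singly, so they say nothing of the groups they belong to. GL2, a homeodomain factor of trichome development, read 4.48, 4.56 and 4.74 in wild type and 3.31, 3.44 and 3.11 in rpl24b and fell by 1.31 (adjusted p = 0.000724 by limma), and MYB23, a MYB factor of the same process, fell by 1.01, a call lost without wild-type replicate 2 (-1.01) or 3 (-0.74), without rpl24b replicate 1 (-1.14), 2 (-1.04) or 3 (-0.84) and with a replicate block. Both were dim in wild type already. Among defence genes PDF1.4 (2.96), the chitinase gene CHIA (2.29), PR4 (2.24), AZI1 (2.15) and EARLI1 (1.95) rose, PDF1.2 (0.80) and PR1 (0.36) were not called, and the NLR genes WRR4 and DAR4 fell by 2.52 and 2.17. PR4 read 4.68, 4.92 and 4.98 against 7.36, 6.69 and 7.25, and its PL change was 2.47.

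Transcription factor probe sets with a WRKY name gave 3 higher calls of 12 (WRKY57 at 1.41, WRKY48 at 1.39 and WRKY60 at 1.27), and those with a NAC name 3 of 6 (NAC016 at 1.94, NAC047 at 1.72 and NAC3 at 1.16), beside 2.11% of all probe sets. Neither had a lower call. NAC3 lost its call without wild-type replicate 1 (1.09) or 3 (0.89), without rpl24b replicate 1 (1.101), 2 (1.32) or 3 (1.06) and on centred arrays. Catalases moved apart, with CAT3 higher by 1.55, from 9.59, 10.32 and 9.76 to 11.61, 11.56 and 11.16, and CAT2, the leaf peroxisomal enzyme, lower by 1.13, a call that held only without rpl24b replicate 2 among the arrays left out (-0.760 to -1.297 without the others). The phenylalanine ammonia-lyases PAL2 and PAL4 fell by 1.65 and 1.21. In sulfur metabolism LSU1 rose by 2.04, the vacuolar sulfate transporter SULTR4;2 by 1.303 and APR3 by 1.00, the last a call lost on leaving out wild-type replicate 1 or 3 (1.004 and 0.989) or rpl24b replicate 1 or 3 (1.000 and 0.763).

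The arabinogalactan protein gene AGP22 read 4.42, 3.89 and 4.17 in wild-type and 6.499, 6.696 and 6.346 in rpl24b NP RNA and rose by 2.36, beside 0.35 in PL RNA. Its mean PL signal was dim in both genotypes, at 4.11 in wild type and 4.46 in rpl24b, and so was its wild-type NP mean. The gap between its NP and PL changes is therefore no measure of a change in ribosome loading. The chromomethylase CMT2 rose by 1.45 in NP RNA beside 0.28 in PL RNA. RNA polymerase subunit genes gave 3 higher calls of 12, beside 2.11% of all probe sets, NRPB12 (1.79), NRPB9B (1.28) and NRPB9A (1.11), with PL changes of 0.80, 0.60 and 0.71, and the call of NRPB9A was lost without any 1 array other than wild-type replicate 3 (0.80 to 1.26).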
